A study of Mus musculus with 2 samples.

Results

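The troponin genes of mouse were followed from embryonic fibroblasts to reprogrammed cells at successive points of muscle differentiation. The 8 members are Tnnt1, Tnnt2 and Tnnt3 for troponin T, Tnni1, Tnni2 and Tnni3 for troponin I, and Tnnc1 and Tnnc2 for troponin C. They were chosen by gene symbol from the 26100 genes listed for both samples, and all 8 symbols were found. A single stage marker gene or a pair of them sorted the cells, so those markers (Pax7, Myog, Ckm, Myh4) are definitions here and not results.

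The study profiled single cells of 2 cultures by droplet sequencing, in which a unique molecular identifier (UMI) marks each captured mRNA. The MEF sample held mouse embryonic fibroblasts kept in fibroblast medium. The iMPC sample held induced myogenic progenitor cells, made from such fibroblasts with the transcription factor MyoD together with F/R/C and kept in F/R/C medium, where the labels do not spell out F, R and C. Both samples carry the genotype Tg:Pax7-nGFP/C57BL6;DBA2, a Pax7 reporter transgene on a mixed background, and the iMPC are described as a stable clone, which limits them as a model of the method in general.

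Troponin is the calcium switch of the thin filament in striated muscle. Troponin C binds calcium, troponin I holds back the interaction of actin with myosin until calcium arrives, and troponin T ties both to tropomyosin. Each subunit has isoforms made from separate genes: Tnnt1, Tnni1 and Tnnc1 serve slow skeletal fibres, Tnnt3, Tnni2 and Tnnc2 serve fast skeletal fibres, and Tnnt2 and Tnni3 serve the adult heart, which uses Tnnc1 as its troponin C. Tnnt2 is also known from embryonic skeletal muscle, and Tnni1 from the fetal heart.

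Cells were kept at up to 20% mitochondrial UMIs, with a minimum of 8036 UMIs for iMPC, whose file lists every barcode. This left 6043 MEF cells (median 18929 UMIs) and 9349 iMPC cells (median 20846 UMIs), with 16 barcodes present in both. The Pax7 stage (at least 1 Pax7 UMI and no Myog UMI) held 2180 iMPC cells with a median of 18729.5 UMIs. The Myog stage (at least 5 Myog UMIs and at most 1 Ckm UMI) held 1724 cells with a median of 23857.5 UMIs. The Ckm stage (at least 5 Ckm UMIs, no Myh4 UMI) held 386 cells with a median of 32798 UMIs, and the Myh4 stage (at least 2 Myh4 UMIs) held 720 cells with a median of 47026.5 UMIs. The definitions overlap in 103 cells of the Myog and Myh4 stages and in 5 of the Pax7 and Myh4 stages, and 4447 iMPC cells met none of them. Pax7 marks muscle stem cells, Myog (myogenin) drives their differentiation, Ckm is muscle creatine kinase and Myh4 a fast myosin heavy chain. Fibroblast markers (Col1a1, Col1a2, Dcn, Pdgfra, Thy1, Lum) summed to 5480 UMIs per 1000000 UMIs of the set (CPM) in MEF, with 6 of 6 at 10 CPM or more, to 549.8 CPM in the Pax7 stage and to between 53.5 and 149 CPM in the later stages. Each group is 1 library, so nothing below carries a p-value. All intervals are exact 95% intervals for counting error only, cells are not replicates, and the spread between cultures was not measured. A lower CPM in a set cannot be told apart from a smaller share of expressing cells in it except where shares of cells are given.

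The troponin genes lie in 3 pairs of a troponin I and a troponin T gene plus 2 separate troponin C genes (GRCm38, GENCODE M21). Tnnt1 (chromosome 7, 4504570 to 4516382, minus strand) lies 1922 bases from the cardiac Tnni3 (chromosome 7, 4518305 to 4524229, minus strand). Tnni1 (chromosome 1, 135779434 to 135810989, plus strand) is 25364 bases from Tnnt2 (chromosome 1, 135836354 to 135852260, plus strand). Tnni2 (chromosome 7, 142441808 to 142444410, plus strand) is 54425 bases from Tnnt3 (chromosome 7, 142498836 to 142516009, plus strand). Tnnc1 (chromosome 14, 31208312 to 31211729, plus strand) lies within the span of Nisch on the opposite strand, and Tnnc2 (chromosome 2, 164777161 to 164779967, minus strand) overlaps Ube2c on the opposite strand by 1662 bases. Prr33, a long noncoding RNA gene on the opposite strand, overlaps Tnnt3 by 7936 bases, and Dnaaf3 overlaps Tnni3 by 1297 bases on the same strand. Whether counting used the strand is not given in the sources used here, so the counts of these overlapping genes are uncertain to that extent, those of Tnni3 and Dnaaf3 whatever the strand setting.

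Promoter windows from 250 bases before to 50 bases after a RefSeq start (GRCm38.p6) were found for 6 of the 8 members. The 250 bases before the start are shown 5′ to 3′ for 2 of the gene pairs, because the members of the first pair behaved most unlike each other and those of the other most alike in the values that follow. Where a gene has several starts (Tnni1, Tnnt2), the most upstream is shown. Capitals mark CAGCTG, a form of the E-box that MyoD and myogenin are known to bind, and TATAAA, the TATA box.
Tnnt1, chr7:4515976-4516225, strand minus: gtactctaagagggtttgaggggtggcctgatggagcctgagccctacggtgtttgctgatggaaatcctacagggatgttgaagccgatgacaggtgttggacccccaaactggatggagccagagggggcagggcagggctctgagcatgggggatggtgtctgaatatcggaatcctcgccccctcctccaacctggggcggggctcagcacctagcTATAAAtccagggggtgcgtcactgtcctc
Tnni3, chr7:4522529-4522778, strand minus: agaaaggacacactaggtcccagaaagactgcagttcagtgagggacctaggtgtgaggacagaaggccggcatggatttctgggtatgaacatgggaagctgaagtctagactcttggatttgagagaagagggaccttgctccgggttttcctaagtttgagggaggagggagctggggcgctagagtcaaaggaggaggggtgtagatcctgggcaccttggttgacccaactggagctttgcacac
Tnni1, chr1:135799171-135799420, strand plus: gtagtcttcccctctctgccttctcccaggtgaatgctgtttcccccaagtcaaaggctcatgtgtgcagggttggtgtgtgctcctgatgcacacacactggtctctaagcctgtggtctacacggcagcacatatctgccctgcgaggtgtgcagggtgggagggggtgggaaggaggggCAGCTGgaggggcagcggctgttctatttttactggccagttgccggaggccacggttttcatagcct
Tnnt2, chr1:135836084-135836333, strand plus: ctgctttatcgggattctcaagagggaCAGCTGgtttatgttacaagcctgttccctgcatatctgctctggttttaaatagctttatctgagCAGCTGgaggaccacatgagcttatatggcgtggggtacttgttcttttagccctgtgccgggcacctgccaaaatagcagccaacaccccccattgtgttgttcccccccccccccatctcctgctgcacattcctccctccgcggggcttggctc

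Counting from the start site as 0, CAGCTG begins at -68 in the Tnni1 window and at -223 and -157 in the Tnnt2 window, and TATAAA begins at -30 in the Tnnt1 window. Both strands were searched over the 300 bases of each window, and 16.3% of the 32851 windows in the RefSeq table hold CAGCTG, while 13.6% hold TATAAA. These percentages are per window, whereas the 6 members have 8 windows and a member was counted if any of its windows matched. Of the 6 members, 2 hold CAGCTG (Tnni1 and Tnnt2, with 2 windows each) and 1 holds TATAAA. The wider pattern CANNTG, which includes CAGCTG, was found in 6 of 6 but also in 72.3% of windows in all. CATTCC, the motif of TEAD factors, was found in 2 of 6 members (Tnnt2 and Tnnc1) and in 14.7% of windows, whereas the MEF2 element (3.19% of windows) and the CArG box (1.63%) were found in 0 of 6. These matches describe letters in a window and not binding.

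Fibroblasts held almost no troponin mRNA, and in iMPC the summed level was higher at each later stage. The 8 genes together took 8.20 CPM in MEF, 891 CPM in the Pax7 stage, 9576 CPM in the Myog stage, 22755 CPM in the Ckm stage and 29446 CPM in the Myh4 stage, where they made up 2.94% of all UMIs. Tnni3 was not higher in this order, and Tnnt2 was lower in the Myh4 than in the Ckm stage. In MEF the most abundant member was Tnnc1 at 4.87 CPM (4.48 to 5.28), with 575 UMIs in 540 cells, which was 8.94% of them. The other 7 members had between 15 UMIs (Tnnc2) and 118 UMIs (Tnnt1) in the whole MEF library of 118069653 UMIs, and 14 of the 59 Tnni2 UMIs came from 1 cell. Across all iMPC cells 7 of 8 members were at least 2-fold higher than in MEF, from 8.46 on the log2 scale for Tnnc1 to 14.33 for Tnnc2, where 15.0% of the 3320 genes at 50 CPM or more in either library were. No member reached 50 CPM in MEF, so the 7 passed that minimum through iMPC alone. None could therefore have been called 2-fold lower, as 21.9% of those genes were. Tnni3 stayed under 50 CPM in every set, so it could not be called in this or any later count of members.

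**Figure D1:**
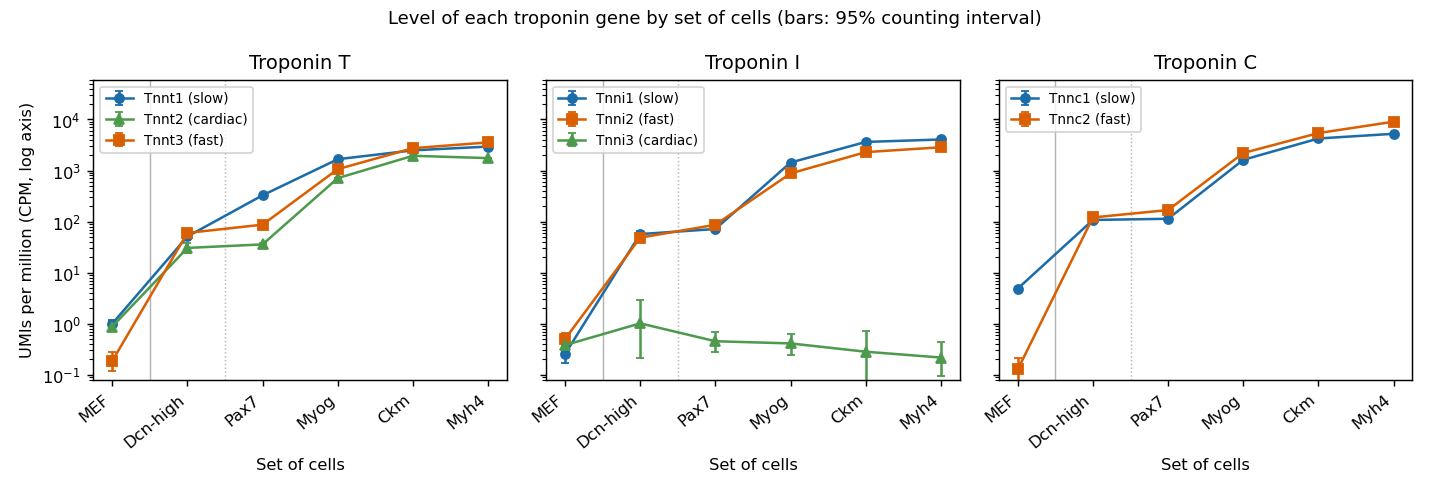
CPM (log axis) of each troponin gene, 1 panel per subunit, in MEF cells, Dcn-high iMPC cells (explained in the text) and the 4 iMPC stages; points are sums over cells and bars are 95% counting intervals. Apart from Tnni3, which stays near or below 1 CPM, the genes are higher at each stage from Pax7 to Ckm (Tnnt2 is lower again in the Myh4 stage), and Tnnt1 is the member that stands above its Dcn-high level by the most in the Pax7 stage.

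Troponin T was led by the slow isoform in early cells and by the fast isoform in late ones. Tnnt1 measured 0.999 CPM (0.827 to 1.197) in MEF, 328 CPM (322 to 333) in the Pax7 stage, 1666 CPM in the Myog stage, 2485 CPM in the Ckm stage and 2946 CPM in the Myh4 stage. It was the highest troponin of the Pax7 stage, ahead of Tnnc2. Tnnt3 measured 0.186 CPM in MEF, 87.1 CPM in the Pax7 stage, 1065 CPM in the Myog stage, 2738 CPM in the Ckm stage and 3556 CPM in the Myh4 stage, and so passed Tnnt1 between the Myog and Ckm stages. Tnnt2, the cardiac and embryonic form, measured 0.881 CPM in MEF, 35.8 CPM in the Pax7 stage, 711 CPM in the Myog stage, 1944 CPM (1921 to 1967) in the Ckm stage and 1750 CPM (1737 to 1764) in the Myh4 stage. It was the lowest troponin T in each of the 4 iMPC stages. With stages as defined above, it was the only one of the 7 abundant members lower in the Myh4 than in the Ckm stage. When stages were assigned after thinning every cell to the same depth, Tnni1 and Tnnc1 were lower there as well (log2 ratios -0.11 and -0.04).

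Troponin I was carried by the slow Tnni1 and the fast Tnni2 together, with the slow form ahead from the Myog stage on. Tnni1 measured 0.254 CPM in MEF, 71.6 CPM in the Pax7 stage, 1434 CPM in the Myog stage, 3632 CPM in the Ckm stage and 4055 CPM in the Myh4 stage. Tnni2 measured 0.4997 CPM in MEF, 86.6 CPM in the Pax7 stage, 878 CPM in the Myog stage, 2293 CPM in the Ckm stage and 2855 CPM in the Myh4 stage. The cardiac Tnni3 was at 0.381 CPM (0.278 to 0.510) in MEF, 0.454 CPM (0.278 to 0.702) in the Pax7 stage, 0.411 CPM in the Myog stage, 0.283 CPM in the Ckm stage and 0.218 CPM (0.0940 to 0.429) in the Myh4 stage. These Tnni3 intervals overlap, and its log2 ratio of all iMPC to MEF was 0.08 (-0.44 to 0.63). The 9 cardiomyocyte markers (Nkx2-5, Gata4, Tbx5, Nppa, Myh6, Myl7, Ryr2, Hand2, Tbx20) were likewise low, summing to between 2.11 and 3.35 CPM over the 4 stages with 0 of 9 at 10 CPM. Tnnt2 at 1944 CPM was thus measured in cells nearly without cardiomyocyte markers.

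Troponin C was the most abundant subunit from the Myog stage on, and its fast form led throughout iMPC. Tnnc2 measured 0.127 CPM in MEF, 168 CPM in the Pax7 stage, 2203 CPM in the Myog stage, 5419 CPM in the Ckm stage and 9041 CPM (9011 to 9072) in the Myh4 stage, the highest level of any member. Tnnc1, shared by slow fibres and heart, measured 114 CPM in the Pax7 stage, 1619 CPM in the Myog stage, 4244 CPM in the Ckm stage and 5243 CPM in the Myh4 stage. In the Pax7 stage 1.60 troponin T UMIs were counted per troponin C UMI, with 0.900 in the Myog stage, 0.742 in the Ckm stage and 0.578 in the Myh4 stage. The corresponding values for troponin I were 0.563, 0.605, 0.613 and 0.484. With free RNA subtracted, as explained with the Pax7-stage values, the troponin T ratios were 3.88, 0.911, 0.743 and 0.577 and those of troponin I 0.886, 0.612, 0.615 and 0.484. Troponin T per troponin C was thus lower with each stage both ways, by more with the subtraction. These are ratios of mRNA counts, and differences in the capture of 3′ ends were not tested.

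The main step was from the Pax7 to the Myog stage, where 7 of 8 members were at least 2-fold higher against 7.70% of 2910 genes at 50 CPM or more in either stage, and 0 of 8 were 2-fold lower, against 9.31%. The log2 ratio was 4.32 (4.27 to 4.38) for Tnni1, 4.31 for Tnnt2, 3.83 for Tnnc1, 3.71 for Tnnc2, 3.61 for Tnnt3, 3.34 for Tnni2 and 2.35 (2.32 to 2.37) for Tnnt1. With free RNA subtracted, these ratios were 5.74 for Tnni1, 6.03 for Tnnt2, 5.51 for Tnnc1, 5.41 for Tnnc2, 4.76 for Tnnt3, 4.14 for Tnni2 and 2.55 for Tnnt1, which was the lowest of the 7 either way. From the Myog to the Ckm stage 6 of 8 members were at least 2-fold higher against 5.36% of 2648 genes, and 0 of 8 were 2-fold lower, against 6.80%. The ratios of those 6 lay between 1.30 (Tnnc2) and 1.45 (Tnnt2), while Tnnt1 was at 0.58 (0.56 to 0.60). Of these, 3 (Tnnt2, Tnni1, Tnnc1) stayed under 2-fold, at 0.80, 0.84 and 0.97, when stages were assigned after every cell had been thinned to 5000 UMIs. Without the 103 cells shared with the Myh4 stage the Myog-stage levels were lower, at 1532 CPM for Tnnt1 and 1703 CPM for Tnnc2, and the same counts of members passed. From the Ckm to the Myh4 stage 0 of 8 members were 2-fold higher, against 3.52% of 2473 genes, and 0 of 8 were 2-fold lower, against 2.67%. The log2 ratio there was 0.74 (0.73 to 0.75) for Tnnc2, between 0.16 and 0.38 for Tnnt1, Tnnt3, Tnni1, Tnni2 and Tnnc1, and -0.15 (-0.17 to -0.13) for Tnnt2.

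Troponin UMIs in Pax7-stage cells have to be read against free muscle RNA in the droplets. In the iMPC library, 48846 barcodes of 200 to 600 UMIs, too few for a cell, held 2399 CPM of Tnnt1, 2314 CPM of Tnnt3 and 5572 CPM of Tnnc2. In 2636580 barcodes of 1 to 100 UMIs these genes were lower, at 1380, 956 and 2581 CPM. A further 157 iMPC cells with at least 10 UMIs of Dcn (decorin, a fibroblast matrix gene) and none of Pax7, Myog, Ckm and Myh4 served as cells that should lack troponin (median 17276 UMIs). They still held 51.2 CPM of Tnnt1, 30.5 CPM of Tnnt2, 60.0 CPM of Tnnt3, 56.9 CPM of Tnni1, 48.4 CPM of Tnni2, 108 CPM of Tnnc1 and 121 CPM of Tnnc2. Set against them, 6 of the 8 members were at 50 CPM or more in either set. Of these 6, 1 (Tnnt1) was at least 2-fold higher in the Pax7 stage, against 11.8% of 3130 genes. None was 2-fold lower, against 14.7%. A count of 1 in 6 is too small to be set apart from that share. The log2 ratio of Tnnt1 was 2.68 (2.45 to 2.92) and that of Tnni2 was 0.84 (0.60 to 1.09). The others lay between 0.08 (Tnnc1) and 0.54 (Tnnt3), with Tnni3 at or under 20 UMIs in both. In 1885 Pax7-stage cells without any Ckm or Myh4 UMI, matching the Dcn-high cells in that respect, the ratio was 2.65 for Tnnt1, 0.70 for Tnni2, 0.00 for Tnnt2 and -0.08 for Tnnc1.

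The share of Pax7-stage UMIs that free RNA could account for was computed as if every cell carried 430.0 UMIs, the median of the 200 to 600 UMI barcodes, with their gene make-up. It was 15.6% for Tnnt1, 44.8% for Tnni2, 56.6% for Tnnt3, 63.7% for Tnni1, 70.0% for Tnnc1, 70.5% for Tnnc2 and 70.6% for Tnnt2. These shares depend on the barcodes chosen. The make-up of the 1 to 100 UMI barcodes, with summed troponin at 10007 instead of 19171 CPM, was not used for them. After subtraction, Tnnt1 was at 282.5 CPM, Tnnc2 at 50.7 CPM and Tnnt2 at 10.7 CPM. Against MEF, 6 of 8 members were at least 2-fold higher in the Pax7 stage, where 14.5% of 3312 genes were and 19.8% were 2-fold lower. All members were under 50 CPM in MEF, so none could have been called lower. After the subtraction 2 of 8, Tnnt1 and Tnnc2, were at 50 CPM or more and 2-fold higher. The other 4 (Tnnt3, Tnni1, Tnni2 and Tnnc1) were then under 50 CPM in both sets, with log2 ratios to MEF of 7.70, 6.71, 6.61 and 2.84. Tnnt2, like Tnni3, was under 50 CPM in both sets without the subtraction too. In the Myog stage the same share was between 2.31% (Tnnt1) and 4.06% (Tnnc2) for the 7 abundant members. After thinning to 5000 UMIs, 53.8% (51.7 to 55.9) of Pax7-stage cells held a Tnnt1 UMI (82.8% unthinned), compared with 21.7% (15.5 to 28.9) of Dcn-high cells and 0.469% of MEF cells. For Tnnc1 the shares were 40.9% of Pax7-stage and 42.0% of Dcn-high cells, a level no higher than the background. For Tnnt3 they were 31.6% and 29.9%, and for Tnnt2 14.4% and 15.9%. The shares were 52.8% and 45.9% for Tnnc2, 31.5% and 24.2% for Tnni2, and 29.1% and 26.1% for Tnni1. These were higher in the Pax7 stage, with intervals that overlap those of the Dcn-high cells.

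Among Pax7-stage cells, the counted level of Tnnt1 was higher in those with more UMIs of a cell cycle marker and of MyoD. These splits were chosen after seeing the data and use the 1885 cells without Ckm and Myh4 UMIs. Tnnt1 was at 146 CPM (140 to 153) in 771 cells without a Top2a UMI, a topoisomerase of dividing cells, at 286 CPM in 259 cells with 1 to 2 of them and at 432 CPM (423 to 441) in 855 cells with 3 or more. After thinning, 42.4%, 53.3% and 63.6% of the cells in these sets held a Tnnt1 UMI. In the same order Tnnt2 was at 37.3, 36.5 and 25.2 CPM, Tnnc1 at 116, 109 and 92.6 CPM, and Tnni2 at 63.6, 83.3 and 86.9 CPM. The 430.0 UMIs of free RNA per cell would give, in cells without Top2a and with 3 or more, 64.9 and 42.2 CPM of Tnnt1, 32.1 and 20.9 CPM of Tnnt2, 101 and 65.6 CPM of Tnnc1, and 49.4 and 32.0 CPM of Tnni2. For Tnnt2 and Tnnc1 the level expected from free RNA was therefore lower in the cells with more Top2a as well. By Myod1, which encodes MyoD, Tnnt1 was at 246 CPM without a UMI (882 cells), 363 CPM with 1 to 4 (803 cells) and 437 CPM with 5 or more (200 cells). After thinning, the share of cells with a Tnnt1 UMI was 46.9%, 59.7% (56.2 to 63.1) and 58.0% (50.8 to 64.9) in that order. The share was thus no higher with 5 or more Myod1 UMIs than with 1 to 4. Dcn was at 111, 14.3 and 40.2 CPM in these 3 sets and the median depth at 17443, 18810 and 23799 UMIs. With both markers crossed it was at 120 CPM without either, 182 CPM with Myod1 alone, 375 CPM with 3 or more Top2a UMIs alone and 461 CPM with both. Dcn was at 189, 26.4, 34.2 and 17.4 CPM in that order. Depth and fibroblast RNA moved with the Top2a split: the median was 14820 UMIs in cells without Top2a and 23106 in those with 3 or more, and Dcn was at 119.9 and 23.2 CPM. In cells without any Dcn UMI the Tnnt1 levels were 163 and 447 CPM, and the part of depth and of fibroblast RNA in either split was not tested.

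Within the Myog stage, Tnnt1 was nearer to its own Myh4-stage level than the other 6 abundant members were to theirs. In CPM over the whole stage it was not the highest, as Tnnc2 was at 2203 CPM and Tnnt1 at 1666 CPM. The 1724 cells were split, after seeing the data, by Myh3, the embryonic myosin heavy chain. In 341 cells without a Myh3 UMI, Tnnt1 was at 807 CPM (787 to 828), which was 27.4% of its Myh4-stage level, while the other 6 abundant members were at between 2.11% (Tnnc1) and 6.18% (Tnni2) of theirs. In 757 cells with 1 to 9 Myh3 UMIs, Tnnt1 was at 1163 CPM or 39.5%, and the others at between 4.73% (Tnnc1) and 12.4% (Tnni2). In 626 cells with 10 or more, Tnnt1 was at 2418 CPM or 82.1%, and the others had come to between 48.3% (Tnnc2) and 80.0% (Tnnt2). Of the last set 98 cells also belong to the Myh4 stage, against 2 and 3 of the others. Free RNA could account for 5.80% of Tnnt1 UMIs in the cells without Myh3, for 20.2% of Tnni2 and for 65.8% of Tnnc1. Myog itself was at 953, 1369.7 and 1453 CPM in the 3 sets, and Top2a at 330, 303 and 130 CPM.

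**Figure D2:**
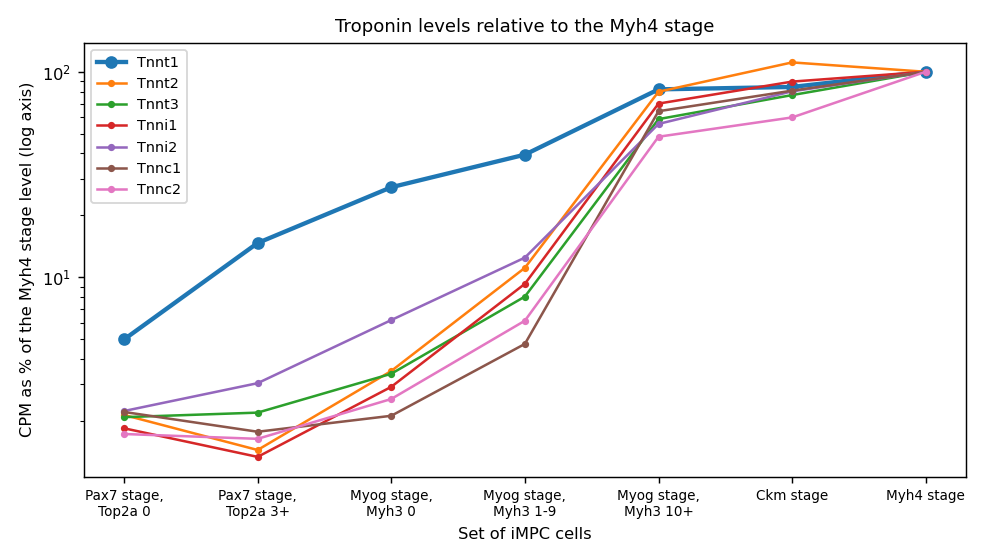
Level of the 7 abundant troponin genes as a percentage of their Myh4-stage CPM (log axis) in subsets of the Pax7 stage (by Top2a UMIs, cells without Ckm and Myh4), subsets of the Myog stage (by Myh3 UMIs), the Ckm stage and the Myh4 stage. Tnnt1 (thick line) lies above the others up to the Myog-stage cells with 1 to 9 Myh3 UMIs, where it stands at 39.5%, and joins them in the cells with 10 or more.

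The isoform make-up changed most for troponin T. Tnnt1 held 72.7% (72.1 to 73.3) of troponin T UMIs in the Pax7 stage, 48.4% in the Myog stage, 34.7% in the Ckm stage and 35.7% in the Myh4 stage. With free RNA subtracted its Pax7-stage share was 85.1%, and in the Dcn-high cells it was 36.1% (31.5 to 40.9). Tnnt3 held 19.3%, 31.0%, 38.2% and 43.1% over the 4 stages, and Tnnt2 7.94%, 20.7%, 27.1% and 21.2%. The cardiac form therefore reached its highest share in the Ckm stage, with an interval of 26.9 to 27.4% that does not overlap that of the Myh4 stage (21.1 to 21.4%).

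Troponin I and troponin C changed less. Tnni1 held 45.1% (43.96 to 46.3) of troponin I UMIs in the Pax7 stage, where free RNA could account for much of the count. It then held 62.0%, 61.3% and 58.7%, and Tnni2 held 54.6%, 38.0%, 38.7% and 41.3% over the 4 stages. Within the Myog stage Tnni1 went from 40.1% in cells without Myh3 to 64.1% in cells with 10 or more Myh3 UMIs, so the fast form led in the cells without Myh3. Tnni3 held 0.286% in the Pax7 stage and 0.00315% in the Myh4 stage. For troponin C, Tnnc2 held 59.7%, 57.6%, 56.1% and 63.3% over the 4 stages. In MEF the slow Tnnc1 made up 97.5% (95.8 to 98.6) of the 590 troponin C UMIs. Over all 3 subunits the fast isoforms held 40.01% of slow plus fast UMIs in the Pax7 stage, 46.8% in the Myog stage, 50.2% in the Ckm stage and 55.8% in the Myh4 stage. In the Pax7 stage free RNA could account for 44.8% (Tnni2) to 70.5% (Tnnc2) of the UMIs of a fast member. For the slow members it was 15.6% (Tnnt1), 63.7% (Tnni1) and 70.0% (Tnnc1), and the Dcn-high cells were at 51.5% fast. The subunits differed: in the Myh4 stage fast forms led for troponin T and C and the slow form led for troponin I.

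**Figure D3:**
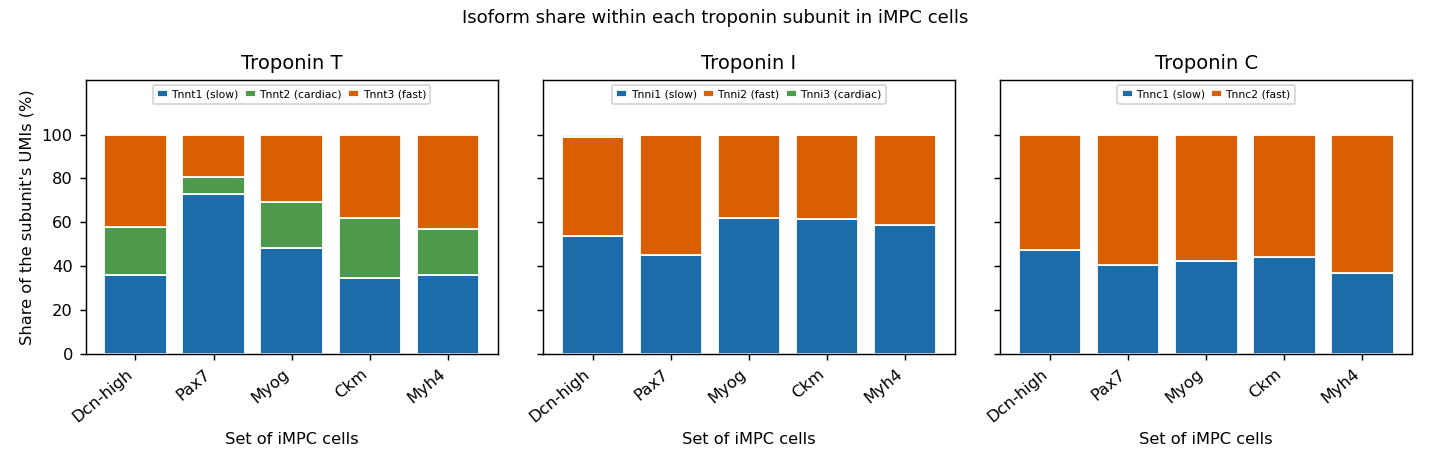
Share (%) of each subunit's UMIs held by its slow, fast and cardiac isoform in Dcn-high cells and the 4 iMPC stages, from UMIs summed over cells. The slow Tnnt1 holds 72.7% in the Pax7 stage and 35.7% in the Myh4 stage, while troponin I is between 58.7% and 62.0% slow from the Myog stage on and troponin C between 56.1% and 63.3% fast.

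Slow and fast isoforms were found in the same cells. In cells with at least 20 slow plus fast UMIs, the fast share had a median of 41.7% in the Myog stage (1465 of 1724 cells), 49.3% in the Ckm stage (386 of 386) and 54.7% in the Myh4 stage (714 of 720). Its quartiles were 29.6 and 50.8% in the Myog stage, 45.1 and 53.6% in the Ckm stage and 50.4 and 60.3% in the Myh4 stage, so they lay closer together in the later stages. In cells with at least 50 such UMIs they were 34.1 and 51.5%, 45.2 and 53.6%, and 50.6 and 60.4%. The part of counting error in this spread was not tested. In the Myh4 stage the share ran from 18.9 to 92.7%, with 1 cell above 90%, and 77.7% of cells held more fast than slow UMIs. No cell of the Ckm or Myh4 stage was under 10% fast, and 25 Myog-stage cells were. After thinning to 5000 UMIs, Tnnt1 and Tnnt3 were both found in 18.7% of Pax7-stage, 62.9% of Myog-stage, 97.2% of Ckm-stage and 98.3% of Myh4-stage cells. All 7 abundant members were found together in 0.413%, 33.4%, 94.0% and 95.6% of cells in that order, and in 0 of 157 Dcn-high cells. Free RNA adds UMIs of both kinds to every cell, and up to 1.21% of the UMIs of an abundant member in the Ckm and Myh4 stages could come from it.

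**Figure D4:**
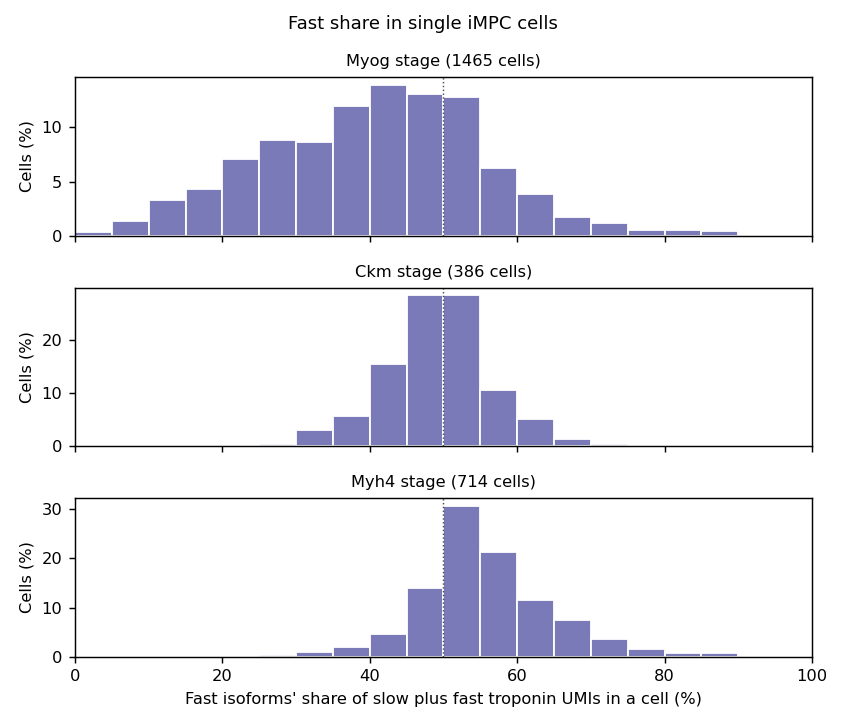
Share of Myog-stage, Ckm-stage and Myh4-stage cells (%) by the fast isoforms' percentage of slow plus fast troponin UMIs in the cell, in steps of 5 percentage points, for cells with at least 20 such UMIs; the dotted line marks equal slow and fast counts. The distributions have a single peak, with medians of 41.7%, 49.3% and 54.7%.

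Ordering the 9349 iMPC cells by Ckm alone gave a finer view of the late cells. From cells with 1 to 3 Ckm UMIs per 10000 (649 cells) through those with 3 to 10 (505 cells) to those with 10 to 30 (67 cells), Tnnc2 was at 6573, 8848 and 12989 CPM and its share of troponin C at 58.9%, 63.1% and 70.8%. Tnnt3 was at 2865, 3723 and 4896 CPM and held 39.5%, 43.1% and 48.8% of troponin T. Tnni2 held 38.4%, 42.5% and 48.3% of troponin I. The slow and cardiac forms did not keep pace: Tnni1 was at 3722, 4107 and 4115 CPM, Tnnc1 at 4592, 5177 and 5353 CPM, and Tnnt2 at 1778, 1923 and 1684 CPM. Tnnt1, at 2609, 2994 and 3444 CPM, also rose by less than Tnnt3. It held 36.0%, 34.7% and 34.4% of troponin T, while the share of Tnnt2 was 24.5%, 22.3% and 16.8%. Another 3 cells were above 30 Ckm UMIs per 10000. Median depth was 34089, 38755 and 42671 UMIs in the 3 bins, and its part in the shares was not tested.

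**Figure D5:**
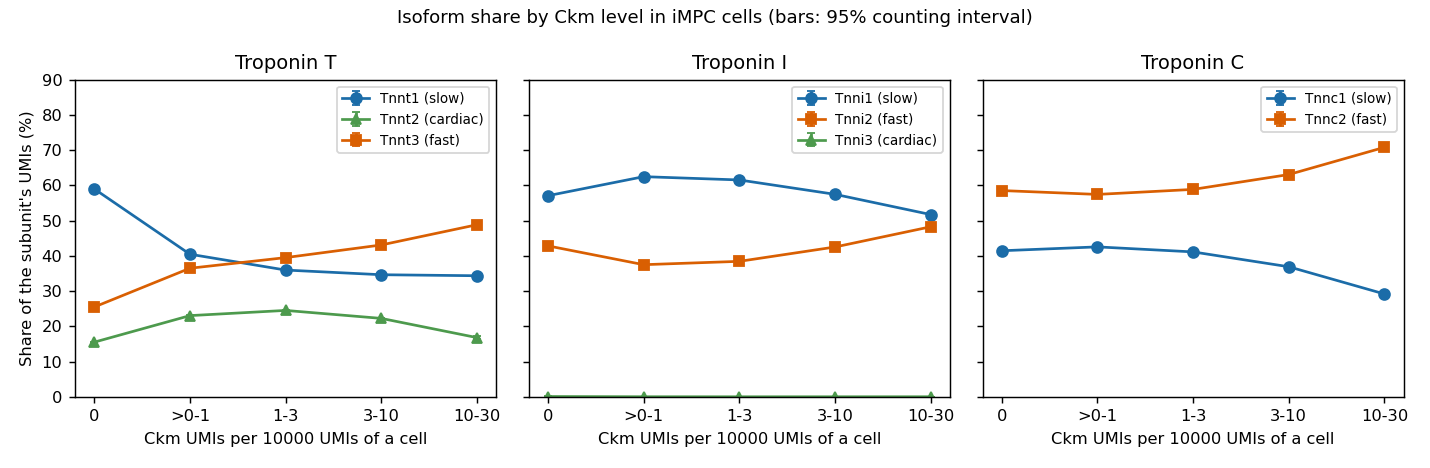
Isoform share within each subunit (%) in iMPC cells binned by Ckm UMIs per 10000 UMIs of the cell, with 95% counting intervals. In the highest bin the fast forms hold 48.8% of troponin T, 48.3% of troponin I and 70.8% of troponin C.

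Other genes of the thin filament and sarcomere were read from fixed lists beside the troponins. Of 14 thin filament genes, 12 were at 50 CPM or more in the Pax7 or Myog stage and 11 of them were at least 2-fold higher in the Myog stage, with a list median of 3.33 on the log2 scale against -0.06 over all genes measured. From the Myog to the Ckm stage 7 of 12 were (median 1.03), and from the Ckm to the Myh4 stage 0 of 12 (median 0.41). The medians of the troponins for these steps were 3.71, 1.36 and 0.31. Acta1, the skeletal actin, was at 239 CPM in the Pax7 stage, 3733 CPM in the Myog stage, 10697 CPM in the Ckm stage and 15349 CPM in the Myh4 stage. Actc1, the cardiac actin also made by embryonic muscle, was at 320.04 CPM, 4408 CPM, 9246 CPM and 5967 CPM, so like Tnnt2 it was lower in the Myh4 than in the Ckm stage (log2 ratio -0.63). Tpm1, a tropomyosin gene, was at 2276 CPM in MEF and at 464 CPM, 1702 CPM, 3469.6 CPM and 6268 CPM over the 4 stages.

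The fast-fibre list was compared with the troponins over the last step. Of its 12 genes, 10 were at 50 CPM or more in the Ckm or Myh4 stage and 8 of them were at least 2-fold higher in the Myh4 stage (median 1.76), where 3.52% of 2473 genes were, and 7 of 9 were without Myh4 itself, which defines the stage (median 1.69). The log2 ratio was 2.86 for Myoz1, 2.75 for Pvalb, the calcium buffer parvalbumin, 2.12 for Casq1, the calcium store protein calsequestrin of fast fibres, 1.83 for Myh2, 1.69 for Actn3, 1.34 for Myh1 and 1.10 for Myl1. Myh2, Pvalb and Myoz1, at 19.6, 27.8 and 38.0 CPM in the Ckm stage, passed the 50 CPM minimum only through the Myh4 stage. A lower call was not possible for them. Because a fast myosin defines the stage, the counts of this list are a description and not a test. The measured genes of the list under 2-fold were Mylpf at 0.83 and Atp2a1, the calcium pump of fast fibres, at 0.73, close to Tnnc2 at 0.74, whereas Tnnt3 was at 0.38 and Tnni2 at 0.32. Mylpf, the fast regulatory light chain and the most abundant gene of the list, was at 258 CPM, 4207 CPM, 9610.1 CPM and 17096 CPM over the 4 stages. Of the 10 slow-fibre genes 7 were at 50 CPM or more and 1, Mybpc1, was 2-fold higher in the Myh4 stage (log2 ratio 1.47). The most abundant slow-fibre genes there were Csrp3 at 691 CPM, Casq2 at 639 CPM and Myoz2 at 486 CPM. Of the embryonic and neonatal genes Myh3, Myl4, Actc1 and Myh8, all 4 were measured and 1, the neonatal myosin Myh8, was 2-fold higher (2.11), with Myh3 at 0.35 and Myl4 at 0.63.

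Of 12 cardiac genes (Myh6, Myl7, Nppa, Nppb, Mybpc3, Ryr2, Nkx2-5, Gata4, Tbx5, Hand2, Hcn4 and Tbx20), 0 reached 50 CPM in any stage or in MEF, and Tnnt2 was in this respect unlike these listed genes. It was not alone among genes of the heart: the cardiac actin Actc1 was at 9246 CPM in the Ckm stage and Tnnc1 at 5243 CPM in the Myh4 stage. Of 13 fibre type regulators, 4 were measured between the Pax7 and Myog stages and 2 were at least 2-fold higher, Mef2c (log2 ratio 3.32) and Vgll2 (1.18), against 7.70% of all genes measured. Mef2c, a MADS-box factor of muscle genes, was at 63.0 CPM, 628 CPM, 1088 CPM and 1352 CPM over the 4 stages, and Tead1 at 129 CPM, 164 CPM, 158 CPM and 151 CPM. Between the later stages 0 of 5 measured regulators were 2-fold higher or lower, where 5.36 and 6.80% of genes were in the step to the Ckm stage and 3.52 and 2.67% in the step to the Myh4 stage.

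Across the 9349 iMPC cells, the genes other than troponins whose log level was most like that of a troponin gene came from a short list of contractile genes. Of 3252 genes at 50 CPM or more in any stage, a count that includes the troponins, Mylpf, Acta1 and Myl1 were the closest to Tnnt3 (Pearson r 0.91, 0.89 and 0.89), to Tnni1 (0.92, 0.91 and 0.91), to Tnni2 (0.90, 0.88 and 0.88) and to Tnnc2 (0.93, 0.91 and 0.91). For Tnnt2 they were Acta1, Mylpf and Myl4 (0.90, 0.90 and 0.89), and for Tnnc1 Acta1, Myl4 and Mylpf (0.92, 0.91 and 0.91). Tnnt1 had other partners with lower values, Actc1 (0.79), Ttn (0.78) and Atp2a1 (0.75), and its r with the other 6 abundant troponins was between 0.67 and 0.76, whereas Tnnt2 and Tnni1 reached 0.92 with each other. These cells share 1 library, its free RNA and a wide range of depths, so the values describe the cells and are not tested. Within the 2727 cells of the Myog, Ckm and Myh4 stages the closest genes of Tnnt1 other than troponins were Mylpf (0.68), Tpm2 (0.68) and Tpm1 (0.65).

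Genes next to the troponins were far less abundant or differed less between stages. Tnni3, 1922 bases from Tnnt1, had 8 UMIs in the Myh4 stage where Tnnt1 had 108256. Lad1, between Tnni1 and Tnnt2, was at 0 UMIs in MEF and at most at 2.12 CPM in the stages. Lsp1, between Tnni2 and Tnnt3, was at 38.6 CPM in MEF and at 75.6 CPM, 106 CPM, 137 CPM and 94.6 CPM over the 4 stages, a range far smaller than that of both troponins. Syt8 beside Tnni2 was at 2.42 CPM in the Myh4 stage, and Pkp1 beside Tnnt2 at 6.13 CPM in the Pax7 stage and 0.708 CPM in the Myh4 stage. Nisch, which overlaps Tnnc1 in full (3418 bases), was at 211 CPM in MEF and between 153 and 182 CPM in the stages, and across MEF cells its r with Tnnc1 was 0.03. Ube2c, a cell cycle gene that overlaps Tnnc2, was at 85.6 CPM in MEF and at 400.3 CPM, 316 CPM, 69.9 CPM and 40.9 CPM over the 4 stages, the reverse order of Tnnc2 over the stages. Prr33, across Tnnt3, was at 0.0254 CPM in MEF and at most at 0.653 CPM in the stages. Dnaaf3, across Tnni3, was at 2.48 CPM in MEF, above the 0.381 CPM of Tnni3 there, and between 0.0707 and 0.341 CPM in the stages. Ppp1r12c, Mrpl23, Phlda3, Sema3g, Snx21 and Dnaaf3 complete the nearest neighbours, and their levels changed by less than those of the 7 abundant members between the Pax7 and Myog stages.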

How the data were processed

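Single cells of 1 MEF and 1 iMPC culture were profiled with the 10x 3′ v3 kit, per the labels' protocols. The matrices deposited by the authors give whole-number UMI counts for each barcode and gene, with no normalisation seen in the values. Cell Ranger 4.0, Seurat 3.2.3 and the build GRCm38.p6 are named, without roles, per the submitters' processing notes. The annotation is not given in the sources used here. The labels give the MEF sample the treatment text of the iMPC sample too, and its own treatment label was used. The iMPC matrix lists 6794880 barcodes with 282903287 UMIs, and the MEF matrix 6113 barcodes with 118541302 UMIs. The 26100 shared genes were kept; the 24 others held 0.209% of MEF UMIs.

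UMIs were summed over the cells of each set and divided by their total (CPM). Each UMI stands for 1 captured 3′ end, so genes were compared without division by length. Intervals are exact at 95% (Poisson for CPM, Clopper-Pearson for shares, conditional binomial for ratios) and cover counting error only. A ratio was called at 2-fold with 50 CPM or more on the higher side, over all genes, and a gene at 0 was set to a floor of 3 counts. With 1 library per group no test was made. Shares of cells were read after thinning to 5000 UMIs, which left out 284 MEF cells. Doublets were kept, because the stage definitions set no doublet filter; removing those that Scrublet (scanpy 1.11.5) marked was an alternative, with 337 iMPC cells by its own threshold and 249 MEF cells by score, since that threshold marked only 1 there. Analysis used Python 3.11.15, numpy 2.4.6, scipy 1.17.1 and pandas 2.3.3, and the ratio step was tested on simulated counts.

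Members and gene lists were chosen with earlier results of these data known. The text names all members, the 3 most abundant genes of each list and those at 2-fold between the Ckm and Myh4 stages, the 3 genes most correlated with each member, and nearest coding neighbours. The splits by Top2a, Myod1, Dcn and Myh3 and the fast list without Myh4 were added after seeing the data.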

Additional observations from a re-analysis of the deposited data

Results flagged for a closer look

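The 191 iMPC barcodes above the mitochondrial limit of 20%, which entered no comparison, held 30960 troponin UMIs. That is 9269 CPM (9166 to 9373, exact 95% interval), where a count of 0 would have allowed 0.898 CPM and the MEF cells held 8.20 CPM. Tnnc2 was the highest at 2677 CPM, followed by Tnnc1 at 1725 CPM, Tnnt3 at 1320.0 CPM and Tnnt1 at 1117 CPM, and Tnni3 was at 0.299 CPM. It was set apart because it is troponin signal in barcodes left out of the report's comparisons, and which cells these barcodes came from was not tested.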

How the results depend on the processing

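Each choice was changed in turn. Summed troponin in the Myh4 stage (29446 CPM) was 29652 CPM at up to 10% mitochondrial UMIs, 30553 CPM without doublets, 29533 CPM with free RNA subtracted, 31008 CPM with stages from thinned cells, 29884 CPM without cells of overlapping stages, 29910.4 CPM as a mean of cells and 42523 CPM over a total without mitochondrial and ribosomal genes. The Tnnt1 share of Pax7-stage troponin T (72.7%) was 74.5% at 15000 UMIs or more, 85.1% with free RNA subtracted and 70.8% as a mean of cells. The share of Pax7-stage cells with a Tnnt1 UMI (53.8%) was 34.9% at 2000 UMIs, 82.8% unthinned and 31.8% for at least 2 UMIs. These 13 values left the counting interval of the value reported, and the other 31 of that kind did not, or, for counts, stayed within 1.5 times. Members at least 2-fold higher in the Myog than in the Pax7 stage numbered 7 under every setting run. Between the Myog and Ckm stages there were 3 instead of 6 with stages from thinned cells, and between MEF and the Pax7 stage 2 instead of 6 with free RNA subtracted (the other 4 were under 50 CPM, at log2 ratios of 2.84 to 7.70), or 7 over the total without mitochondrial and ribosomal genes. The cause was not tested. Of 968 values for single genes, 584 stayed within their limits and 384 moved. No ratio of 2-fold or more changed sign, but 6 smaller ones did, 3 of them of Tnni3, whose log2 ratio of the Ckm to the Myog stage, -0.54, was 0.71 with stages from thinned cells. Under that setting the log2 ratio of the Myh4 to the Ckm stage was -0.11 instead of 0.16 for Tnni1. For Tnnc1 it was -0.04 instead of 0.31. Of the 21 closest genes, 17 were kept within the 2727 cells of the Myog, Ckm and Myh4 stages. Depth limits the low members: 3 UMIs correspond to 0.0254 CPM in MEF and 0.212 CPM in the Ckm stage, so Tnni3 rests on 45 UMIs in MEF and on 20 or fewer in each stage. No paired analysis was possible because each group has 1 sample, whose replicate number comes from accession order.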
